A study of Mus musculus with 6 samples.

Results

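The miRNAs described here are those of the miR-99/100 and miR-125 families, read by NanoString probes in mouse liver. The members are all probes whose base name is miR-99a, miR-99b, miR-100, miR-125a or miR-125b, whatever the arm. There were 7 such probes among the 566 mouse miRNA probes of the panel. Of these, 3 belong to the Mir99b/Mirlet7e/Mir125a locus (mmu-miR-99b, mmu-miR-125a-5p and mmu-miR-125a-3p) and 4 to the miR-99a, miR-100 and miR-125b loci (mmu-miR-99a, mmu-miR-100, mmu-miR-125b-5p and mmu-miR-125b-3p). The prefix mmu, for mouse, is left out from here on. The tissue was liver from 3 Apcfl/fl mice, which carry a hypomorphic mutant Apc allele on both chromosomes and whose liver tumours depend on Wnt/β-catenin activity, and normal liver from 3 Apc+/+ mice without tumour, all on a C57Bl/6 background. No treatment is named for either genotype, and age, sex and the share of tumour in each piece of tissue are not given in the sources used here. In the NanoString assay each miRNA is counted through its own colour-coded probe, without amplification. Counts of different probes are not on a common scale, so the changes of a probe between livers are what can be compared.

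As background, a miRNA guides a silencing complex to mRNAs that pair with its seed, the bases near its 5′ end. MiR-125 is the vertebrate counterpart of lin-4, a timing miRNA of the nematode, and let-7 is the other classical timing miRNA. In vertebrates the miR-99/100, let-7 and miR-125 genes lie together in clusters that arose by duplication, and the members of a cluster can be cut from a shared primary transcript. In liver, miR-125b and miR-99a are known as miRNAs whose level is often reduced in hepatocarcinoma, and mTOR and Igf1r are known targets of the miR-99/100 family.

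The mature sequences are shown because they define the families: the seed (bases 2 to 8) is in capitals, and it is the same in all members of a family across the loci. The 5p sequences, 5′ to 3′ from RefSeq (GRCm38.p6), were:
miR-99b: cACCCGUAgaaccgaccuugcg
miR-99a: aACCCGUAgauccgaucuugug
miR-100: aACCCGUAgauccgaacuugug
miR-125a-5p: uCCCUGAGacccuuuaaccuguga
miR-125b-5p: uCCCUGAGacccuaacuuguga
The panel names miR-99a, miR-99b and miR-100 give no arm, and the sequences printed for them are those of the 5p arm, which carried the plain name in the older nomenclature. Counting from 1 at the 5′ end, miR-99a and miR-100 were identical at 21 of 22 bases and differed by U16A. MiR-99a and miR-99b were identical at 18 of 22 bases, with the differences A1C, U11A, U16C and U21C, none of them in the seed. MiR-125a-5p has 24 bases and miR-125b-5p has 22, with the first 13 and the last 5 bases in common. How far the probes separate miR-99a from miR-100 was not tested, so values of these near-identical copies are uncertain to that extent. The opposite arms do not share a seed between the paralogues, as the miR-125 3p sequences show:
miR-125a-3p: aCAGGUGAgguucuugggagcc
miR-125b-1-3p: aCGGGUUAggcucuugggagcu
miR-125b-2-3p: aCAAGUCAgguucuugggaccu

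The genes lie in 3 clusters of the same order, a miR-99/100 gene, a let-7 gene and a miR-125 gene, all on the plus strand in GRCm38.p6. The Mir99b cluster is compact. The 5p sequence of miR-99b lies at chr17:17830194-17830215, that of let-7e 172 bases further and that of miR-125a 623 bases further, at chr17:17830817-17830840. In the RefSeq gene table this cluster falls within the bounds of Spaca6, a protein-coding gene. The Mir99a cluster holds miR-99a at chr16:77598940-77598961, let-7c 732 bases further and a copy of miR-125b 47.3 kb further, at chr16:77646279-77646300. The Mir100 cluster holds miR-100 at chr9:41531437-41531458, let-7a 5295 bases further and the other copy of miR-125b 50.5 kb further, at chr9:41581940-41581961, within the bounds of the lncRNA gene Mir100hg. Mature miR-125b-5p is the same from both copies, so its probe reads the sum of the Mir99a and Mir100 clusters.

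**Figure D1:**
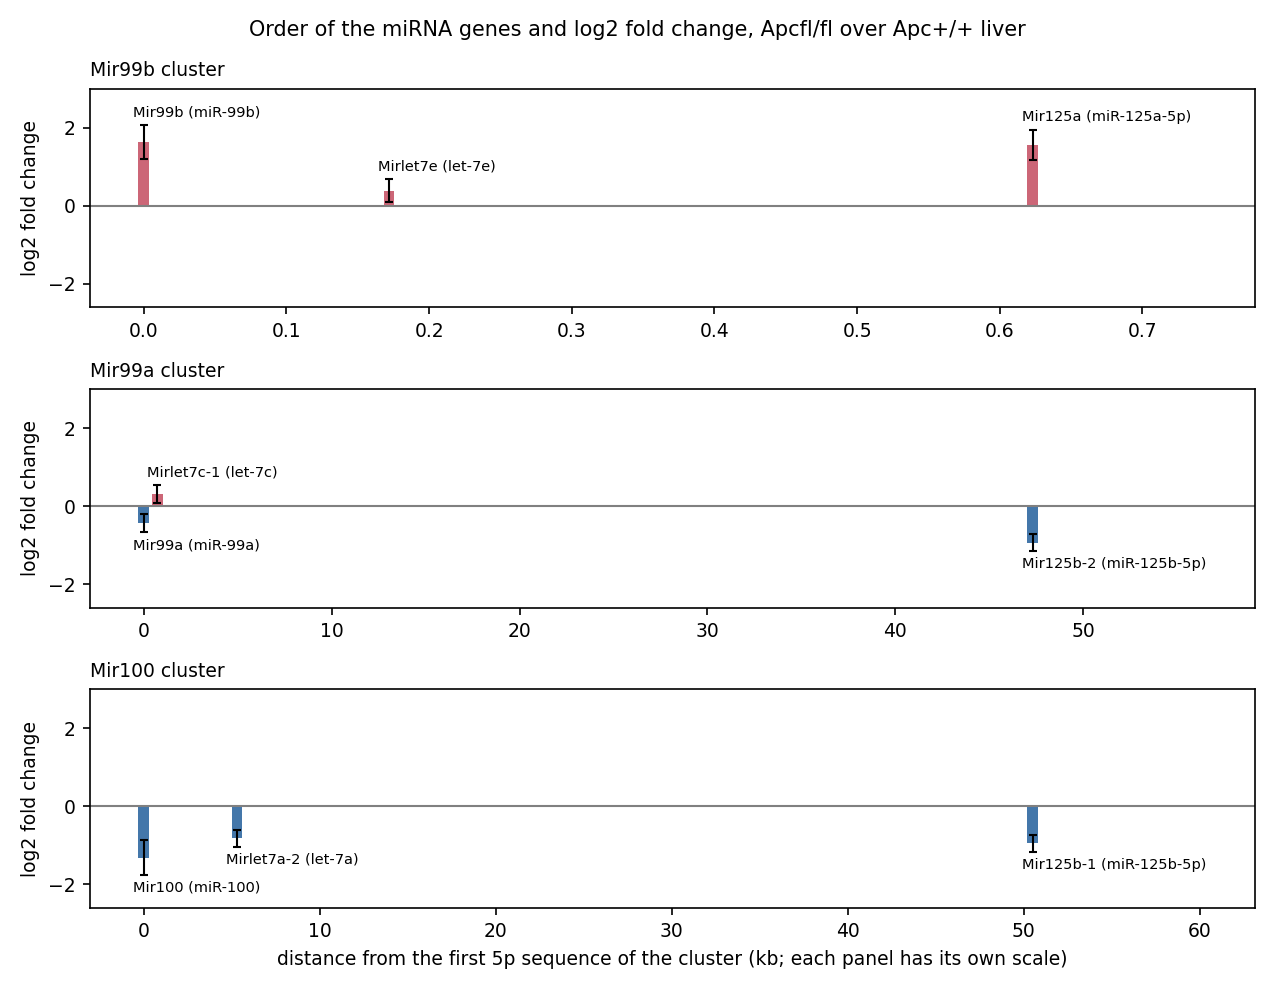
Order and spacing of the miRNA genes in the 3 clusters (x axis: distance in kb from the first 5p sequence, each panel with its own scale) with the log2 fold change of the 5p probe in Apcfl/fl over Apc+/+ liver (bars, with an approximate standard error derived from the edgeR test). Red bars are above 0 and blue bars below it. MiR-99b (1.64) and miR-125a-5p (1.57) are above 0, and miR-99a (-0.43), miR-100 (-1.31) and miR-125b-5p (-0.94, a single probe shown in both of its clusters) are below it.

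Each liver gave between 82942 and 133331 counts on the mouse probes. The share on miR-720 alone was 33% in Apc+/+ liver 3 and 15.7% to 25.7% in the others. Counts were scaled with TMM and compared with edgeR's quasi-likelihood test over the 174 mouse miRNAs whose mean count in the 6 livers reached 20, with Benjamini-Hochberg adjustment over all of them. A normalized count is the rounded count divided by the liver's relative effective library size. The background limit of each liver, the mean plus 2 SD of the 33 viral miRNA probes, was 13.1 to 27.8 deposited counts. Of the 7 members, 6 passed the count minimum. The other, miR-125b-3p, lay under the background limit in all 6 livers. The labelled tissue carried its defining marker, with 29867 ± 7844 normalized counts of the hepatocyte miRNA miR-122 in Apc+/+ and 9157 ± 2787 in Apcfl/fl liver (SD, n = 3 each).

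At the Mir99b locus miR-99b was 3.13-fold and miR-125a-5p 2.97-fold higher in Apcfl/fl than in Apc+/+ liver, while miR-125a-3p overlapped between the genotypes (1.2-fold higher, adjusted p of 0.79 in edgeR). At the other loci miR-100 was 2.47-fold and miR-125b-5p 1.92-fold lower. MiR-99a was 1.35-fold lower, with a 95% confidence interval on the log2 scale, -0.99 to 0.13, that takes in 0. None of the 6 members tested passed an adjusted p-value of 0.05 in edgeR (0 of 6, beside 0% of all tested miRNAs). At an unadjusted p-value under 0.05, 4 of the 6 were called, 2 higher and 2 lower, beside 24.7% of all tested miRNAs (13.8% higher and 10.9% lower). With a difference of at least 2-fold asked for as well, 3 were called, miR-99b and miR-125a-5p as higher and miR-100 as lower, beside 17.2% of all tested miRNAs (12.1% higher and 5.17% lower). DESeq2 called 3 at an adjusted p-value under 0.05, namely miR-99b and miR-125a-5p as higher and miR-125b-5p as lower, beside 16.7% of all tested miRNAs (11.5% higher and 5.17% lower). Limma called 0 of the 6, 4 of which had an unadjusted p-value under 0.05 in edgeR, beside 2.3% (0.575% higher and 1.72% lower). The normalized counts of the genotypes did not overlap for 5 of the 6 members, beside 33.9% of all tested miRNAs (15.5% higher and 18.4% lower). The median log2 fold change of the 6 members was -0.08, against 0.01 for all tested miRNAs.

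MiR-99b, the miR-99/100 member of the compact locus, had 46.7, 55.2 and 45.4 normalized counts in Apc+/+ livers 1 to 3 against 115.1, 262.7 and 96.5 in Apcfl/fl livers 1 to 3. Each Apcfl/fl liver was above the highest Apc+/+ liver, and Apcfl/fl liver 2 stood well above the other Apcfl/fl livers. The means were 49.1 ± 5.33 and 158.1 ± 91 (SD, n = 3 each), which gave a log2 fold change of 1.64, with a standard error of 0.43, a 95% confidence interval from 0.62 to 2.67 and an adjusted p of 0.069 by edgeR. Leaving out Apcfl/fl liver 2 gave a log2 fold change of 1.13.

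MiR-125a-5p, the lin-4 counterpart of that locus, had 136.3, 203.8 and 135.1 normalized counts in Apc+/+ livers 1 to 3 against 431.8, 718.1 and 275.8 in Apcfl/fl livers 1 to 3. The genotypes did not overlap, and the Apcfl/fl livers stood in the same order as for miR-99b, with liver 2 highest and liver 3 lowest. EdgeR fitted a log2 fold change of 1.57, with a standard error of 0.39, a 95% confidence interval from 0.66 to 2.49 and an adjusted p of 0.064. Within each liver the log2 ratio of miR-125a-5p to miR-99b, which no scaling between livers can change apart from the pseudocount of 2, was 1.51, 1.85 and 1.53 in Apc+/+ against 1.89, 1.45 and 1.51 in Apcfl/fl liver. This ratio overlapped between the genotypes, with a mean difference of -0.02 (standard error 0.18).

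The opposite arm of the same hairpin, miR-125a-3p, had 54.3, 57.7 and 18.4 normalized counts in Apc+/+ against 63, 33.9 and 61.1 in Apcfl/fl liver. Here the genotypes overlapped, and Apcfl/fl liver 2, which was highest for the 5p arm, was lowest of its genotype for the 3p arm. EdgeR fitted a log2 fold change of 0.27, with a standard error of 0.51, a 95% confidence interval from -0.95 to 1.48 and an adjusted p of 0.79. That interval takes in 0 and reaches almost to the 1.57 of the 5p arm. In Apc+/+ liver 3 its deposited count of 15 was close to the background limit of 14.3. The log2 ratio of the 5p to the 3p arm was 1.29, 1.78 and 2.72 in Apc+/+ against 2.74, 4.32 and 2.15 in Apcfl/fl liver, which overlapped.

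MiR-125b-5p, the paralogue of miR-125a-5p, had 1174, 1317 and 934.7 normalized counts in Apc+/+ livers 1 to 3 against 575.7, 506.3 and 694.7 in Apcfl/fl livers 1 to 3. All Apcfl/fl livers were below all Apc+/+ livers. EdgeR fitted a log2 fold change of -0.94, with a standard error of 0.22, a 95% confidence interval from -1.46 to -0.43 and an adjusted p of 0.056. Its opposite arm, miR-125b-3p, had deposited counts of 12, 13 and 3 in Apc+/+ and of 10, 1 and 4 in Apcfl/fl liver. These lie under the background limit of every liver, so a difference was not detectable at this depth and no fold change is given. The panel name does not say from which of the 2 miR-125b genes this 3p arm comes.

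MiR-100 had 69.4, 63.8 and 59 normalized counts in Apc+/+ against 13.5, 22.2 and 38.1 in Apcfl/fl liver. The Apc+/+ livers lay close together and above all Apcfl/fl livers, which spread widely among themselves. EdgeR fitted a log2 fold change of -1.31, with a standard error of 0.45, a 95% confidence interval from -2.37 to -0.24 and an adjusted p of 0.13. In Apcfl/fl liver 1 the deposited count of 15.33 was under the background limit of 27.8, so the level there is known only to lie under that limit.

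MiR-99a, which differs from miR-100 by a single base, had 212, 198.9 and 197.8 normalized counts in Apc+/+ against 185.3, 131.3 and 133.9 in Apcfl/fl liver. The genotypes did not overlap, but the difference was small. EdgeR fitted a log2 fold change of -0.43, with a standard error of 0.24, a 95% confidence interval from -0.99 to 0.13 and an adjusted p of 0.31. For each of the 5 probes without overlap the two-sided exact permutation test gave p = 0.1, the smallest p that 3 livers against 3 allow.

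**Figure D2:**
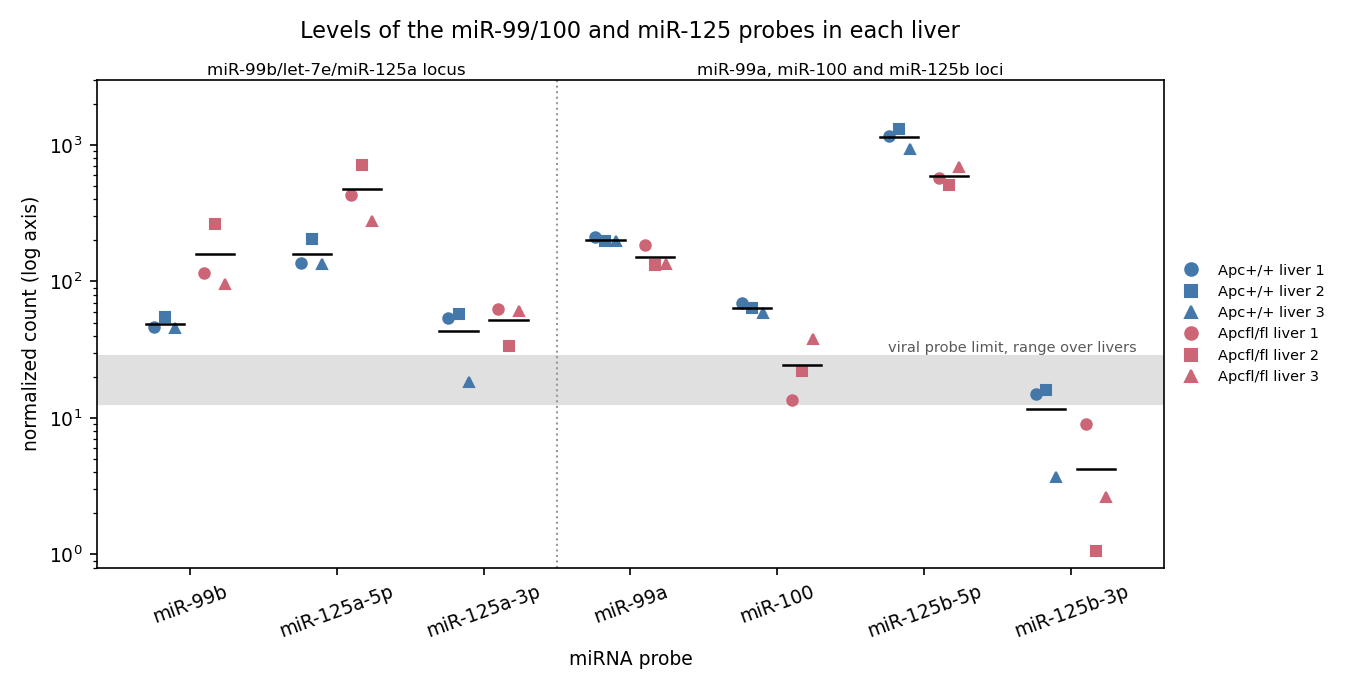
Normalized count (log axis) of the 7 probes in each of the 3 Apc+/+ (blue) and 3 Apcfl/fl livers (red). Points are livers, black lines are means, and the grey band is the range of the background limit over the livers on the same scale. MiR-99b and miR-125a-5p are higher in all 3 Apcfl/fl livers, miR-99a, miR-100 and miR-125b-5p are lower in all 3, miR-125a-3p overlaps, and miR-125b-3p lies in or under the band and under each liver's own limit.

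A change of scaling shifted all members by a similar amount. With the total count as library size the median log2 fold change over the 174 tested miRNAs was 0.45 in place of 0.01, and no member of the miR-99a, miR-100 and miR-125b loci was without overlap between the genotypes any more, whereas miR-99b and miR-125a-5p still were (beside 2.87% of all tested miRNAs lower and 21.8% higher, 24.7% in all). With miR-720 left out of the total, miR-99b, miR-125a-5p and miR-100 did not overlap (beside 23.6% higher and 5.17% lower, 28.7% in all). These counts under other scalings were chosen after the data had been seen. The log2 fold changes with the total count were -0.03 for miR-99a, -0.56 for miR-125b-5p and -0.93 for miR-100. Relative to the median of all miRNAs under that scaling they were -0.48, -1.01 and -1.38. Size factors from the most abundant miRNAs moved the median the other way, to -0.07, and gave -0.51 for miR-99a, -1.04 for miR-125b-5p, -1.42 for miR-100, 1.51 for miR-99b and 1.45 for miR-125a-5p.

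A comparison of paralogues within a liver does not need a scaling between livers. The log2 ratio of the deposited counts (plus 2) of a probe of the Mir99b locus to those of its paralogue was taken in each liver. For miR-125a-5p over miR-125b-5p it was -3.08, -2.68 and -2.77 in Apc+/+ against -0.41, 0.5 and -1.33 in Apcfl/fl liver. The lowest Apcfl/fl liver was thus above the highest Apc+/+ liver by more than the whole spread of the Apc+/+ livers. The change of miR-125a-5p exceeded that of miR-125b-5p by 2.43 (standard error 0.54) on the log2 scale, a 5.39-fold shift of the ratio.

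For miR-99b over miR-99a the log2 ratio was -2.14, -1.82 and -2.08 in Apc+/+ against -0.68, 0.98 and -0.47 in Apcfl/fl liver, a difference of 1.95 (standard error 0.53) between the genotypes. For miR-99b over miR-100 it was -0.57, -0.22 and -0.38 in Apc+/+ against 2.9, 3.42 and 1.3 in Apcfl/fl liver, a difference of 2.93 (standard error 0.65). Since miR-100 lay under the background limit in Apcfl/fl liver 1, the ratio there is known only from below: with miR-100 set to that limit it was 2.12 in that liver, and the difference between the genotypes was 2.67. In both, all Apcfl/fl livers were above all Apc+/+ livers. A two-sided exact permutation test over the livers was run for these 3 pairs, and each gave p = 0.1 (adjusted p = 0.1 over the 3 pairs), the smallest p the design allows. Apcfl/fl liver 3 had the smallest ratio in 2 of the 3 pairs, and without it the difference for miR-99b over miR-100 was 3.55. Without Apcfl/fl liver 2 the difference for miR-99b over miR-99a was 1.43.

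Over all 9 ways to set a tested probe of the Mir99b locus against one of the other loci, the difference was between 0.79 and 2.93 (2.67 at most with miR-100 set to the limit in Apcfl/fl liver 1), without overlap between Apc+/+ and Apcfl/fl livers in 8 of the 9. These pairs share probes and are not independent of each other. The exception was miR-125a-3p over miR-99a. In the 6 pairs made with miR-99b or miR-125a-5p the difference was between 1.94 and 2.93.

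**Figure D3:**
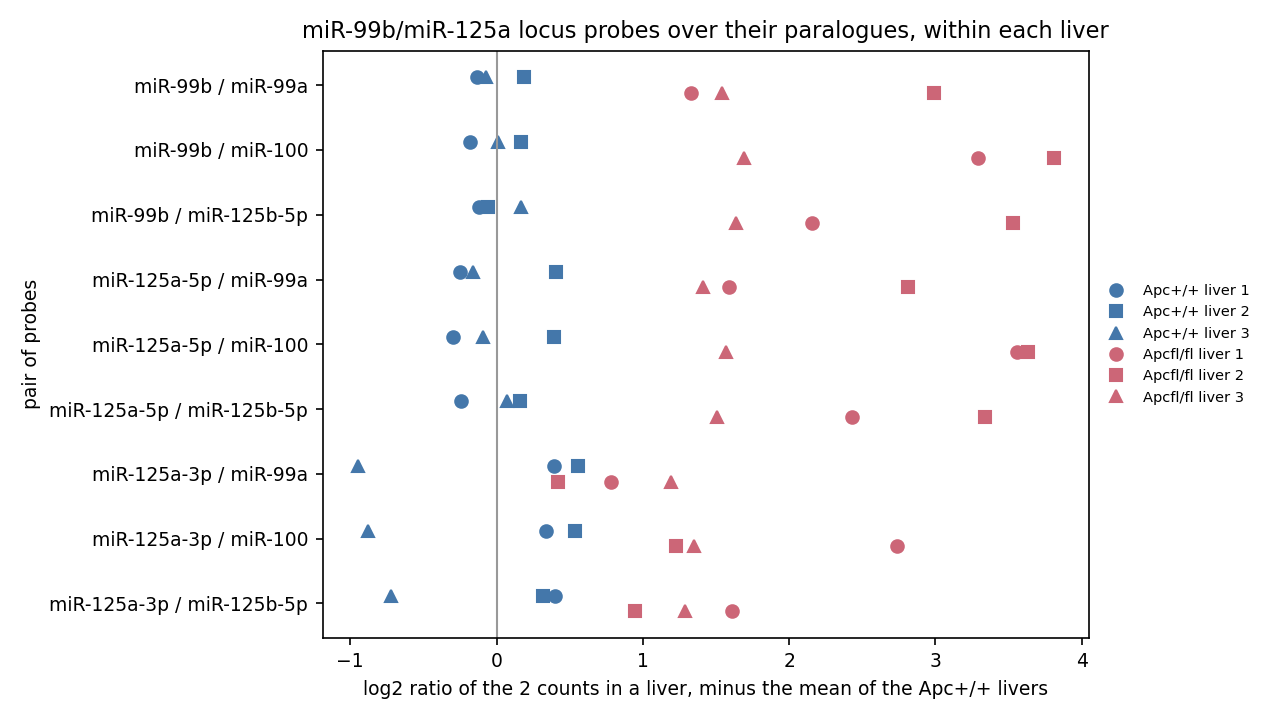
Log2 ratio of a Mir99b locus probe to a probe of the other loci in each liver, with the mean of the Apc+/+ livers set to 0 (x axis), for the 9 pairs of probes (y axis). Blue points are Apc+/+ livers and red points Apcfl/fl livers, and the ratios to miR-100 in Apcfl/fl liver 1 (red circle) use a count under the background limit. In the 6 upper pairs all Apcfl/fl livers lie to the right of all Apc+/+ livers, and among the 3 lower pairs, made with miR-125a-3p, miR-125a-3p over miR-99a overlaps.

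Within the other loci the ratios between members differed less between the genotypes than in those 6 pairs. The log2 ratio of miR-125b-5p to miR-99a was 2.45, 2.71 and 2.22 in Apc+/+ against 1.62, 1.92 and 2.36 in Apcfl/fl liver, which overlapped. That of miR-125b-5p to miR-100 was 4.02, 4.31 and 3.92 against 5.21, 4.36 and 4.13, which overlapped too. The ratio of miR-100 to miR-99a, the miRNAs that differ by a single base, was -1.57, -1.6 and -1.7 in Apc+/+ against -3.59, -2.44 and -1.77 in Apcfl/fl liver, lower in each Apcfl/fl liver although liver 3 was close to the Apc+/+ range. With miR-100 at the limit in Apcfl/fl liver 1, its log2 ratio to miR-99a there was -2.81, and that of miR-125b-5p to miR-100 was 4.43.

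The makeup of each seed family differed between the genotypes without overlap of the livers. Of the counts on the 2 miR-125 5p probes, miR-125a-5p took 10.4%, 13.4% and 12.6% in Apc+/+ against 42.9%, 58.7% and 28.4% in Apcfl/fl liver. The 95% Wilson intervals of the nearest livers, 11.6% to 15.4% in Apc+/+ liver 2 and 26.2% to 30.8% in Apcfl/fl liver 3, did not meet. Of the counts on miR-99a, miR-99b and miR-100, miR-99b took 14.2%, 17.4% and 15% in Apc+/+ against 36.7%, 63.1% and 35.9% in Apcfl/fl liver. Here the nearest intervals were 13.2% to 22.5% in Apc+/+ liver 2 and 31.4% to 40.7% in Apcfl/fl liver 3. These intervals cover counting error only, and the shares are of probe counts, not of molecules.

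The summed probe counts of a family overlapped between the genotypes. These are sums of probe counts, not of molecules, so they do not show whether the level of a family changed. The 3 miR-99/100 probes added up to 316.1 ± 13 normalized counts in Apc+/+ and 332.9 ± 75.7 in Apcfl/fl liver (SD, n = 3 each). The miR-125 5p probes added up to 1300 ± 226 in Apc+/+ and 1067 ± 137 in Apcfl/fl liver. The livers ranged from 302.2 to 328.1 against 268.5 to 416.3 for the first sum, and from 1070 to 1521 against 970.4 to 1224 for the second.

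**Figure D4:**
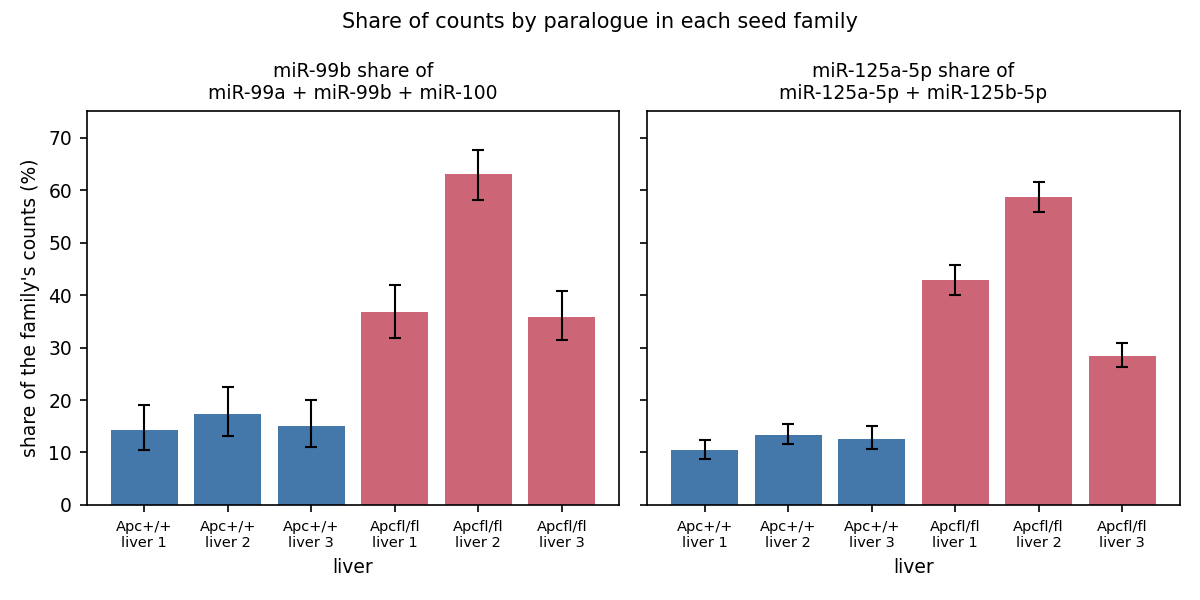
Share (%) of the counts of a seed family taken by the Mir99b locus probe in each liver, miR-99b on the left and miR-125a-5p on the right. Bars are livers (Apc+/+ blue, Apcfl/fl red) and error bars are 95% Wilson intervals, which cover counting error only. The Apc+/+ livers lie between 10.4% and 17.4% and the Apcfl/fl livers between 28.4% and 63.1%.

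Of the let-7 miRNAs encoded between the members, let-7e and let-7c overlapped between the genotypes and let-7a was lower in Apcfl/fl liver. Of the 7 probes related to the members by position or sequence (let-7a, let-7c, let-7e, miR-351, miR-670, miR-10a and miR-10b), 4 were tested, 2 higher and 2 lower, and 0 passed an adjusted p-value of 0.05 in edgeR (1 of the 4, let-7a, at an unadjusted p-value under 0.05, a share close to the 24.7% of all tested miRNAs). Their median log2 fold change was -0.16, against 0.01 for all tested miRNAs. The sequences of the 3 let-7 miRNAs, with the seed in capitals, show how close they are:
let-7e: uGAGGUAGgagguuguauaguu
let-7c: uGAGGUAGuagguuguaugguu
let-7a: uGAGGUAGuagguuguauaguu
From let-7a to let-7e the only difference is U9G, and from let-7a to let-7c it is A19G.

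Let-7e, which lies between miR-99b and miR-125a, had 200.7, 213.6 and 163.4 normalized counts in Apc+/+ against 216.8, 350.6 and 191.7 in Apcfl/fl liver. The genotypes overlapped. EdgeR fitted a log2 fold change of 0.39, with a standard error of 0.29, a 95% confidence interval from -0.3 to 1.08 and an adjusted p of 0.42. Within a liver, the log2 ratio of let-7e to miR-99b was 2.05, 1.91 and 1.8 in Apc+/+ against 0.9, 0.41 and 0.98 in Apcfl/fl liver, lower in all 3 Apcfl/fl livers by a mean of -1.16 (standard error 0.19). That of miR-125a-5p to let-7e was higher in all 3 Apcfl/fl livers, by a mean of 1.14 (standard error 0.21). The ratio of let-7e to its paralogue let-7c overlapped, with a difference of 0.05 (standard error 0.27). That of let-7e to let-7a was higher in all 3 Apcfl/fl livers, by 1.18 (standard error 0.34). How far the let-7e probe also reads let-7a, at 2286 ± 159 normalized counts in Apc+/+ liver (SD, n = 3), was not tested.

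Let-7a, the neighbour of miR-100, is also made from genes outside these clusters. It was lower in each Apcfl/fl liver, at 1297 ± 260 normalized counts (SD, n = 3), and edgeR gave -0.82 on the log2 scale, with a standard error of 0.21 and an adjusted p of 0.068. Let-7c, the neighbour of miR-99a and likewise made from more than a single gene, overlapped between the genotypes, at 0.31 on the log2 scale with a 95% confidence interval from -0.23 to 0.85. MiR-10a, a distant relative of the miR-99/100 family, was lower in each Apcfl/fl liver, at -0.62 on the log2 scale (standard error 0.3, edgeR adjusted p = 0.25). MiR-351 (which has the seed of miR-125), miR-670 and miR-10b lay under the background limit in all livers.

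Among all 174 tested miRNAs, the profile over the 6 livers that was most like that of miR-99b was that of miR-125a-5p, and the reverse also held. The root mean square difference of their centred log2 normalized counts was 0.18, against a median of 1.04 over all miRNAs set against either. This is a description over 6 livers that share their scaling, without a test. The next nearest to miR-125a-5p were miR-21 (0.51) and miR-25 (0.53), and the next nearest to miR-99b were miR-1902 (0.37) and miR-24 (0.52), so no other miRNA came as near. For miR-125b-5p the nearest were miR-203 (0.13), let-7g (0.16) and miR-101a (0.18), for miR-99a they were miR-29a (0.1), miR-193 (0.14) and miR-22 (0.15), and for miR-100 they were miR-107 (0.29), miR-145 (0.3) and miR-143 (0.32). No member of the miR-99a, miR-100 and miR-125b loci was among the 3 nearest of another. For miR-125a-3p the nearest were miR-714 (0.32), miR-762 (0.32) and miR-185 (0.33).

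In bulk liver, fewer cells of a type and less RNA per cell cannot be told apart, and marker miRNAs of several cell types are given here beside the members. None of them passed an adjusted p-value of 0.05 in edgeR. Their values are given with TMM scaling only. The total count as library size moved the median log2 fold change over all tested miRNAs from 0.01 to 0.45. Small differences of markers, such as the -0.39 of miR-192 on the log2 scale, can therefore depend on the scaling. All 4 hepatocyte probes were lower in Apcfl/fl liver (sums of 8180 to 13996 normalized counts, against 24679 to 39680 in Apc+/+ liver). MiR-122 made up most of these sums, and miR-192, miR-194 and miR-802 were 1.31-fold, 1.43-fold and 2.45-fold lower. All 4 tested of the 5 mesenchymal probes had a lower fitted value (322 to 724.9 against 893.5 to 1317 for the sum of the 5, of which miR-145 was the largest part). Of the tested mesenchymal probes only miR-143 and miR-145, which were near miR-100 in profile, did not overlap between the genotypes. MiR-199a-5p overlapped, and so did miR-199a-3p, at -0.18 on the log2 scale (standard error 0.4). Both probes of the endothelial miR-126 had a lower fitted value. Their sums, 2764 to 3553 against 3585 to 3808, lay close together without overlap. MiR-126-3p, the larger part of these sums, overlapped between the genotypes (2476 to 3182 against 3076 to 3310), at -0.23 on the log2 scale (standard error 0.18). MiR-126-5p did not overlap. Of the 6 leucocyte probes 5 were tested, 4 higher and 1 lower, with sums that overlapped (347.2 to 891 against 247.4 to 488.6), and miR-223 was the one tested probe of them without overlap, at 71.8 ± 5.5 in Apc+/+ and 192.8 ± 95.5 in Apcfl/fl liver. MiR-142-5p was under the background limit in all livers, and miR-155 was under it in all but Apcfl/fl livers 2 and 3. All 3 erythroid probes had a higher fitted value in Apcfl/fl liver, which came from Apcfl/fl liver 2 alone. MiR-451 was at 600, 3806 and 953.4 normalized counts in Apcfl/fl livers 1 to 3 and at 607.7 to 1070 in Apc+/+ liver, and miR-144 was at 177.2, 652.4 and 220 against 212.4 to 310.5. The sums of the 3 probes ran from 796.1 to 4562 against 856.8 to 1404. Apcfl/fl liver 2 was also the liver with the most miR-99b and miR-125a-5p, and without it their log2 fold changes were 1.13 and 1.21. The neural markers miR-9 and miR-124 and the muscle markers miR-133a and miR-206 were under the background limit in all livers, and miR-1 was under it in all but 1 Apc+/+ liver. Before adjustment, 3 of 4 hepatocyte, 2 of 4 mesenchymal, 0 of 2 endothelial, 2 of 5 leucocyte and 0 of 3 erythroid probes tested were under 0.05, beside 24.7% of all tested miRNAs. The 2 leucocyte probes were miR-223 and miR-155. MiR-155 reached the count minimum only through Apcfl/fl livers 2 and 3, so its place among the higher and the called probes follows from that filter. The part of these cell types in the members' differences was not tested.

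**Figure D5:**
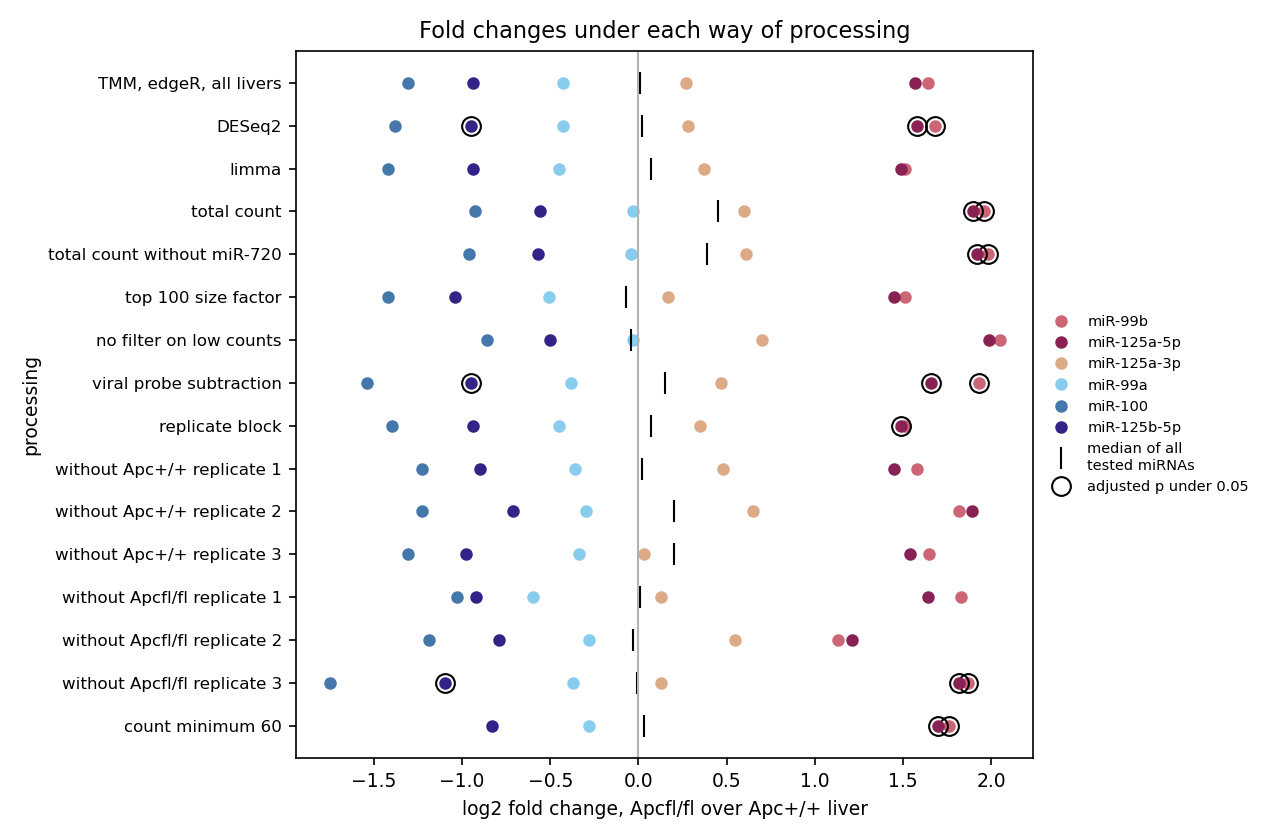
Log2 fold change in Apcfl/fl over Apc+/+ liver (x axis) of the 6 tested members under each way of processing (y axis). Filled points are the members, black ticks are the median of all tested miRNAs, and open circles mark an adjusted p-value under 0.05. MiR-99b and miR-125a-5p stay between 1.13 and 2.05, and miR-100, miR-125b-5p and miR-99a stay between -1.75 and -0.03, while miR-125a-3p runs from 0.03 to 0.7.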

How the data were processed

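Total RNA of frozen liver from 3 Apc+/+ and 3 Apcfl/fl mice was profiled on the NanoString mouse miRNA panel. The authors deposited estimated counts per probe, not scaled between samples, from which, as their decimals show, a constant per probe had been subtracted, and none of which lies under 1. The software used is not given in the sources used here, and a subtraction of this kind affects low counts most. Genotype and replicate number came from the sample labels. Whether the livers of a genotype came from separate litters or runs is not given, so p-values measure the spread between these samples only.

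Counts were rounded. The livers held 82942 to 133331 counts on mouse probes, and probes near the background limit have the least precision. The 174 of 566 mouse miRNAs whose mean count reached 20 were compared with edgeR 4.0.16 in R 4.3.3 (quasi-likelihood test, TMM, prior count 2, Benjamini-Hochberg adjustment over the 174), without a replicate block. Between livers of the same genotype the chi-square of the counts was 17.2 to 89.1 per degree of freedom, and none was a duplicate. The planned negative controls were replaced by the 33 viral probes. Single miRNAs and 3 ratios of paralogues were compared with exact permutation tests. The named miRNAs were the members, 7 related probes, the 3 tested miRNAs nearest to each tested member in profile, and cell type markers. Members, lists and tests were chosen with earlier results of these data known. Alternatives used DESeq2 1.42.0, limma 3.58.1, 3 other scalings, other count minimums, viral probe subtraction, the block, and each liver left out. The edgeR, limma and DESeq2 fits were also run on simulated counts, where only the size of the fitted fold changes was checked. The permutation tests, the ratios of paralogues and the background limit were not simulated. Sequences and coordinates came from the RefSeq miRNA table of GRCm38.p6, in which the 5p sequence of let-7a was placed in the Mirlet7a-2 hairpin by an exact match.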

Additional observations from a re-analysis of the deposited data

How the results depend on the processing

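The fold changes of the 6 tested members kept their direction under every alternative run (15 each, and 14 for miR-100 and miR-125a-3p, which the count minimum of 60 removed). With the settings of the report no adjusted p-value was under 0.05, but several alternatives gave one. For miR-125a-5p the log2 fold change was 1.58 with DESeq2, 1.9 with the total count, 1.92 when miR-720 was left out of that total, 1.7 with the count minimum of 60, 1.66 with viral probe subtraction and 1.49 with the replicate number as a block, each with an adjusted p-value under 0.05. For miR-99b it was 1.68, 1.96, 1.98, 1.76 and 1.93 with the first 5 of these. For miR-125b-5p it was -0.95 with DESeq2 and -0.95 with viral probe subtraction. Over all alternatives the adjusted p-value ran from 0.00339 to 0.177 for miR-125a-5p, 0.00738 to 0.198 for miR-99b, 0.00339 to 0.521 for miR-125b-5p, 0.0512 to 0.521 for miR-100, 0.182 to 0.975 for miR-99a and 0.546 to 0.978 for miR-125a-3p.

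With each liver left out in turn, the log2 fold change ranged from 1.21 to 1.89 for miR-125a-5p, 1.13 to 1.87 for miR-99b, -1.1 to -0.71 for miR-125b-5p, -1.75 to -1.03 for miR-100, -0.6 to -0.28 for miR-99a and 0.03 to 0.65 for miR-125a-3p. Without Apcfl/fl replicate 3, miR-99b, miR-125a-5p and miR-125b-5p had an adjusted p-value under 0.05 (0.0495, 0.0464 and 0.049). The differences between paralogues ranged from 1.43 to 2.27 for miR-99b and miR-99a, 2.49 to 3.55 for miR-99b and miR-100, and 1.97 to 2.89 for miR-125a-5p and miR-125b-5p. With viral probe subtraction or another pseudocount they moved by less than 1 SD between livers. With so few livers, leaving out 1 could not move them by that much, and the block leaves them unchanged. Those runs therefore could not fail this measure. The highest value for miR-99b and miR-100 came without Apcfl/fl replicate 3, and viral probe subtraction gave 3.54. With miR-100 set to the background limit where it lay under it, chosen after the data had been seen, it was 2.67.

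The number of all tested miRNAs with an adjusted p-value under 0.05 (0 higher and 0 lower in edgeR, 24 and 19 before adjustment) was 20 and 9 with DESeq2, 1 and 3 with limma, 16 and 1 with the total count, 18 and 3 without miR-720 in the total, 1 and 3 with size factors taken over the top 100 miRNAs, 12 and 6 with the count minimum of 60, 12 and 7 after subtracting the viral probes, and 4 and 3 under the replicate block. With 1 liver left out it ranged from 0 to 11 higher and 0 to 8 lower, both highest without Apcfl/fl replicate 3. The replicate numbers did not pair the livers (correlations of -0.06, -0.06 and 0.12 between same-numbered livers), and under the block the paralogue differences were unchanged by construction. The median over all tested miRNAs was 0.39 on the log2 scale with miR-720 left out of the total, 0.15 after subtracting the viral probes and 0.2 without Apc+/+ replicate 2 or 3. The causes of these changes were not tested. Depth limits miR-125b-3p, miR-100 in Apcfl/fl liver 1 and miR-125a-3p in Apc+/+ liver 3, which lie under or close to the background limit.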
